A study of Mus musculus with 13 samples.

Results

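The 2368 sites described here lie inside introns of mouse genes and carried little DNA methylation in the livers of mice on a low fat/low sucrose diet. They are 9.91% of the 23904 sites in the authors' deposited comparison of 2 diets, and 30.8% of the 7685 autosomal sites in that table that the authors flagged as intronic and as neither exonic, promoter, CpG island nor island shore. A site was taken when its average methylation on that diet was under 30%. The diet comparison itself chose the sites in 2 ways, since a site is in the table only if it passed the authors' limits on that comparison, and the limit of 30% uses one of the 2 averages compared. Their levels, directions and sizes of difference are therefore given as descriptions without a test.

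Liver DNA of 13 mice was captured, treated with bisulfite and sequenced. Bisulfite changes unmethylated cytosine, and the share of reads that still show cytosine is taken as the methylation level of a site. The diet field of the labels puts 7 mice on low fat/low sucrose food, called low-fat mice below, and 6 on high fat/high sucrose food, called high-fat mice. The labels used here give no strain, sex, age, genotype or duration of feeding, and do not say what the G1 and G2 in the titles stand for. The DNA was captured with an Agilent mouse exon design of 52 Mbp, and which intronic stretches it reached was not checked. Every value below is an average over the mice of a diet made by the authors, so values per mouse, their spread and the read depth behind a site were not analysed here and no SD can be given. The liver was sampled as bulk tissue, so a change of methylation within cells and a change in the mix of cell types cannot be told apart.

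Most CpG positions inside the introns of mammalian genes are heavily methylated. Stretches of low methylation away from promoters and CpG islands often mark DNA where transcription factors bind, and many enhancers lie in such stretches, commonly inside introns of the gene they act on or of a neighbour. In liver, factors such as the HNF, ONECUT and nuclear receptor families bind many such elements near genes of lipid, glucose and bile acid metabolism. No enhancer mark was measured here, and the sites are called low-baseline intronic sites throughout.

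The positions in the table are in genome build mm9, and no sequence of that build was used here, so the introns themselves are not printed. Instead, 3 stretches of 250 bases that end at the gene start are shown, from RefSeq in build GRCm38.p6. They were chosen because the sites nearest to these genes differ in level or direction and the stretches span a wide range of CpG content. A link between CpG content and the behaviour of the sites was not tested. Klb has 1 compact block of sites just inside the gene, all higher in high-fat mice, and Onecut1 has a block at lower methylation, also all higher. Gc has 3 neighbouring sites that moved in both directions. Each is written 5′ to 3′ on the strand of the gene, with every CpG in capitals. The Gc stretch (chr5:89457899-89458148, minus strand) holds 0 CpG, the Klb stretch (chr5:65348161-65348410, plus strand) holds 9, and the Onecut1 stretch (chr9:74861671-74861920, plus strand) holds 31.
Gc: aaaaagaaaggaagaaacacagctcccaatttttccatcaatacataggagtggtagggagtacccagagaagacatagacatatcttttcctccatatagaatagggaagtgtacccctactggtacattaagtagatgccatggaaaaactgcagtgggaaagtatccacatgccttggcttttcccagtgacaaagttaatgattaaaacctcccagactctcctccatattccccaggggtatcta
Klb: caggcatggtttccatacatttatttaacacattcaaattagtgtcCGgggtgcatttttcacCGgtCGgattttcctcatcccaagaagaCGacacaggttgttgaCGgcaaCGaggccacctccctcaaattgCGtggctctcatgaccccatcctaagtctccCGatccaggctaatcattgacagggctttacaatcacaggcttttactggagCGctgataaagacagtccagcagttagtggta
Onecut1: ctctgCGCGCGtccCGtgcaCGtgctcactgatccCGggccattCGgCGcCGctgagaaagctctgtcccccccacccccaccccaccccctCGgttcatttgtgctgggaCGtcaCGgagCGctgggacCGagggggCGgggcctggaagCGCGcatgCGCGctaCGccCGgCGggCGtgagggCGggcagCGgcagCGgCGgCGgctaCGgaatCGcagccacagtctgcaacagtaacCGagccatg

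Genes nearest to low-baseline intronic sites mostly had CpG-rich starts, and so did genes nearest to the other intronic sites. Of the 1347 genes named at low-baseline intronic sites, 1011 had an entry in the RefSeq promoter table, and their median count was 17 CpG in 250 bases. The median was 16 for genes nearest to intronic sites of intermediate baseline (30% to under 70%, 987 of 1282 genes matched) and 17 for genes nearest to intronic sites of high baseline (70% and over, 1567 of 2008 matched). Over all 27025 genes of that table the median was 6. A count of at least 10 CpG was found in 71.5%, 70.6% and 73.8% of the genes of low, intermediate and high baseline, against 40.2% over the whole table. The CpG content of the nearest gene's start thus hardly varied with the baseline of the intronic site.

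Low-baseline intronic sites were mostly more methylated in high-fat mice. Of the 2368 sites, 2155 (91.0%) were higher in high-fat mice and 213 were lower. Over the deposited sites as a whole, 57.6% were higher and 42.4% were lower. This background is not a yardstick here, since the rule selected on the low fat average of the same comparison and a low site has more room to rise than to fall. Rises had a median of 11.6 percentage points and falls one of -10.1 points. Over all low-baseline intronic sites the median of the low-fat averages was 18.9% and that of the high-fat averages was 29.7%. In high-fat mice 1159 sites (48.9%) averaged 30% or more, and at 547 sites the average at least doubled.

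How far the selection fixes the direction was described by moving the limit to the other diet. With the limit of 30% put on the high-fat average instead, 1357 intronic sites were taken, of which 996 (73.4%) were higher and 361 were lower. With the limit on the mean of both averages, 1883 sites were taken and 85.1% of them were higher. Intronic sites of intermediate baseline were higher at 57.0% of 1947 sites, and those of high baseline at 21.3% of 3370 sites. Next to the limit on either side, between 29% and 30%, 61 of 71 were higher with a median difference of 12 points, and between 30% and 31%, 42 of 52 were higher with a median difference of 12.8 points.

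**Figure D1:**
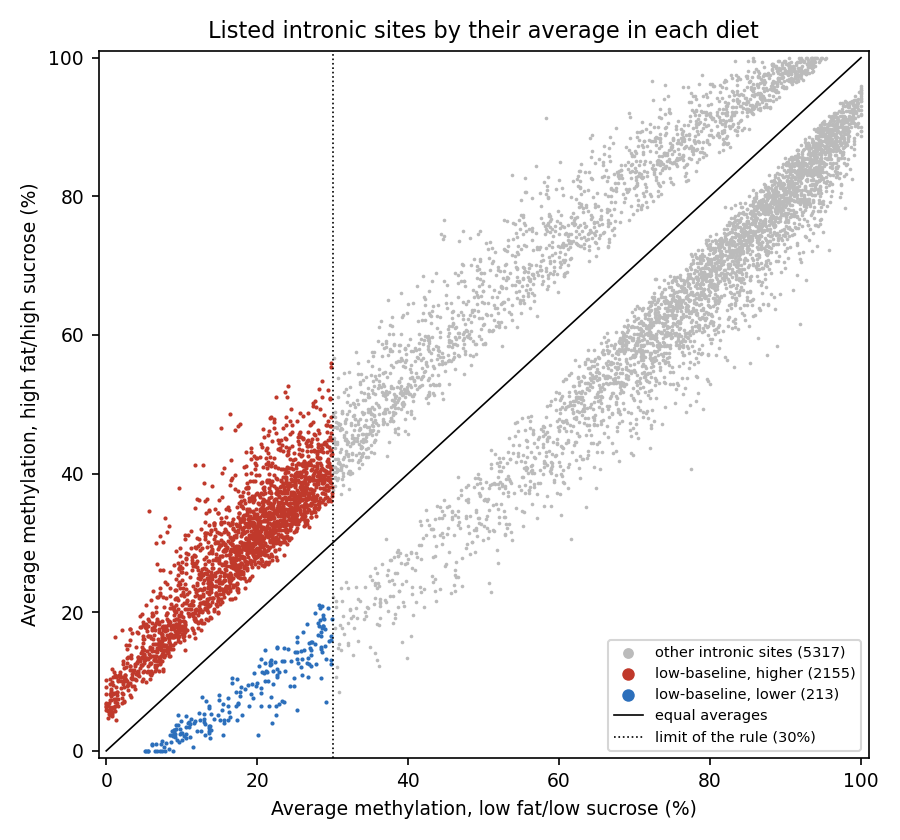
Average methylation (%) of each listed intronic site in low-fat mice (horizontal axis) and high-fat mice (vertical axis), with 1 point per site. The 2155 low-baseline sites above the diagonal are red, the 213 below it are blue, the 5317 other intronic sites are grey, and the empty band along the diagonal holds no sites because the table lists only sites that passed the authors' limits.

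Direction was much the same over the whole range below the limit. Among sites under 5% in low-fat mice all 174 were higher. Their average can fall by less than 5.04 points, the smallest listed difference among low-baseline intronic sites. This count is therefore set in large part by the filter, although a listed fall can exceed the low-fat average. From 5% to 10%, 275 of 313 sites were higher, and from 10% to 15%, 299 of 340. From 15% to 20% the count was 446 of 478, from 20% to 25% it was 552 of 596, and from 25% to 30% it was 409 of 467. The share higher thus stayed between 87.6% and 93.3% above 5%, with no steady slope. The size of the listed rise grew from a median of 7.81 points under 5% to 12.1 points at 10% to 15% and stayed near 12.3 points above that.

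**Figure D2:**
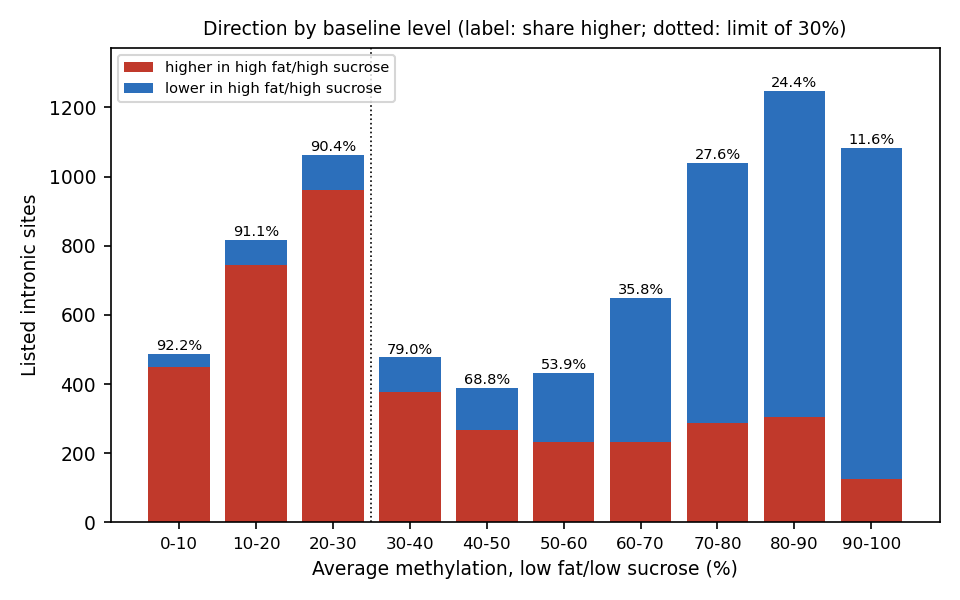
Number of listed intronic sites (vertical axis) by their average methylation in low-fat mice in steps of 10% (horizontal axis), split into sites higher (red) and lower (blue) in high-fat mice, with the share higher above each bar. The share is 90.4% to 92.2% in the 3 bars left of the limit of 30% and falls to 11.6% at 90% to 100%.

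At 8 low-baseline intronic sites the low-fat average was 0. Of the sites under 5%, a few are given with their values. Hoxd3, a homeobox gene of the HoxD cluster, had 3 such sites, and the authors' deposited table gives averages of 2.26%, 0 and 0.227% in low-fat mice against 13.0%, 6.91% and 6.51% in high-fat mice. Isl1, a LIM homeobox gene, averaged 4.79% and 4.16% at 2 sites in low-fat mice and 12.4% and 11.5% in high-fat mice in the authors' deposited table. The Sox1 site at 12401419 on chromosome 8 averaged 0 and 9.15%, per the authors' deposited table. Another Sox1 site of the same cluster, at 12400781 and not under 5%, went the other way, from 7.34% to 1.46% in the authors' deposited table. At these sites the level stayed at or under 13.0% in both diets. These genes were picked after their values were seen.

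The low-baseline intronic sites lay closer to a listed transcription start than the other intronic sites did. Their median distance was 13653 bp (quartiles 5487 and 34477 bp), against 17517 bp at intermediate and 16353 bp at high baseline. Within 10000 bp of a start lay 41.0% of low-baseline, 35.6% of intermediate and 35.3% of high-baseline sites, and within 5000 bp 22.8%, 20.3% and 18.9%. At the far end 394 low-baseline sites (16.6%) lay over 50000 bp from any listed start, against 18.9% and 18.8%. Upstream of the nearest start lay 613 sites (25.9%), which are in an intron of some other transcript than the one named, against 27.2% and 27.4%. A gene named here is therefore the one with the nearest start, and need not be the one whose intron holds the site. These differences in position are a description, since neighbouring sites are not independent and no test over sites was made.

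Most sites were higher at every distance, with the lowest share near the start. Within 2000 bp of a start 92 of 111 sites were higher (82.9%), from 2000 to 5000 bp 395 of 429 (92.1%), from 5000 to 10000 bp 385 of 431 (89.3%), from 10000 to 50000 bp 914 of 1003 (91.1%) and beyond that 369 of 394 (93.7%). Among chromosomes, low-baseline sites made up between 21.5% (chromosome 17) and 38.6% (chromosome 6) of intronic sites, and the share higher ran from 83.1% on chromosome 2 to 96.8% on chromosome 15. Every autosome thus had most of its low-baseline intronic sites higher.

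Low-baseline sites of other genomic classes were also mostly higher. With the same limit of 30%, the share higher was 88.3% of 2283 sites with no gene feature, 91.6% of 346 exonic sites, 86.0% of 591 promoter sites off islands and 86.9% of 1269 shore sites outside promoters. It was 69.8% of 1197 island sites, whose median low-fat average was 5.42% and whose median high-fat average was 7.76%. The introns thus stood beside exons and intergenic sites in this count, and the difference between classes was not tested.

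Low-baseline intronic sites often came in short runs. Another site of the table lay within 100 bp of 34.2% of them, against 24.9% at intermediate and 17.7% at high baseline, and within 1000 bp of 47.1%, against 36.4% and 29.4%. When sites up to 1000 bp apart were joined there were 1806 clusters, of which 1420 held 1 site, 273 held 2 and 75 held 3. Of the 386 clusters with at least 2 sites, 366 had all sites higher, 7 had all sites lower and 13 were mixed. All 435 adjacent pairs of low-baseline sites within 100 bp moved the same way, and 114 of 127 pairs over 100 and up to 1000 bp apart did (89.8%). Nearby positions can be read on the same sequenced fragments, so they are not separate measurements. Sites that were lower were more often alone: 7.04% of them had a listed neighbour within 100 bp, against 36.8% of those that were higher.

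Listed neighbours outside the low-baseline set mostly moved the same way. Within 1000 bp lay 321 such neighbours, of which 254 (79.1%) were higher. Of 466 pairs of a low-baseline site and such a neighbour, 378 shared a direction. A neighbour was counted again for each low-baseline site near it, so dense blocks weigh more in the pairs. By the neighbour's own class, pairs agreed in 80 of 94 cases for exonic neighbours, 269 of 339 for intronic, 12 of 15 for promoter and 16 of 17 for shore neighbours. The runs thus extended past the limit of 30% and past the intron flag.

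Blocks of at least 4 sites numbered 38 and held 177 sites over a median span of 122.5 bp (27 to 721 bp). In 37 of them every site was higher, and the mean change over a block ran from 6.39 to 28.8 points. The block with the largest change lay 4663 to 4706 bp into Erp27, which encodes a redox-inactive member of the protein disulfide isomerase family in the endoplasmic reticulum. Its 5 sites, on chromosome 6 from 136865996 to 136866039, averaged 17.2% in low-fat mice and 46.0% in high-fat mice. The authors' deposited table gives levels of 15.2% to 18.6% in low-fat mice and 43.1% to 47.2% in high-fat mice at these sites, all of them averages over the same mice. A sixth Erp27 site, 1327 bp into the gene, moved only from 4.89% to 10.3% in the authors' deposited table.

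The largest blocks by number of sites were in Klb and Atxn1, with 8 sites each. Klb encodes beta-Klotho, the co-receptor through which hepatocytes respond to the hormones FGF15/19 and FGF21 and which restrains bile acid synthesis. Its 8 sites, on chromosome 5 from 65740781 to 65740909, lay 1133 to 1261 bp into the gene, and averaged 20.9% in low-fat mice and 33.4% in high-fat mice. In order along the chromosome, the authors' deposited table gives 22.0%, 18.1%, 17.3%, 21.4%, 20.7%, 25.1%, 20.4% and 22.1% in low-fat mice. The same 8 sites read 32.7%, 35%, 32.4%, 36.0%, 34.0%, 33.8%, 28.9% and 34.2% in high-fat mice in the authors' deposited table. Each of the 8 sites was higher in high-fat mice, and the table lists no other Klb site. Sites of a block are not replicates of a diet, so how alike they are says nothing about the spread between mice.

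Atxn1 encodes ataxin-1, a chromatin-associated protein that represses transcription with the Capicua factor. Its block covers 66 bp on chromosome 13 from 46012737 to 46012802, 47544 to 47609 bp into the gene, and averaged 25.1% in low-fat mice and 48.8% in high-fat mice. The largest listed difference in it was 24.5 points, at 46012783, where the authors' deposited table gives 24.0% and 52.7% (q = 9.58e-07, the authors' value). All 8 listed differences in the authors' deposited table fell between 16.0 and 24.5 points.

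Other blocks of at least 5 sites were near genes of transport, signalling and transcription. Onecut1 encodes HNF6, a transcription factor of hepatocytes and bile duct cells. Its 6-site block, 6463 to 6871 bp into the gene on chromosome 9 from 74716189 to 74716597, averaged 9.40% in low-fat mice and 17.5% in high-fat mice, the lowest levels among the blocks of at least 5 sites. Another pair of Onecut1 sites, 8996 and 9014 bp into the gene, was higher in level and change: the authors' deposited table gives 26.9% and 25.6% in low-fat mice against 47.0% and 46.1% in high-fat mice. Abcc4, an organic anion exporter of the hepatocyte's blood-facing membrane, had 6 sites within 202 bp that averaged 17.7% and 28.8% in the 2 diets.

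Etv6, an ETS-family transcriptional repressor, had 2 blocks far inside the gene. The 6 sites of one, on chromosome 6 from 134121821 to 134121910, averaged 26.3% in low-fat mice and 41.8% in high-fat mice. The 5 sites of the other, from 134110879 to 134111151, averaged 27.5% and 41.4%. Zeb1, a zinc finger repressor of epithelial genes, had 6 sites at 26.0% and 36.7%, and Mtus1, a microtubule-associated protein, had 7 sites at 26.1% and 36.7%. Hdac5, a class IIa histone deacetylase that in liver responds to fasting signals, had 5 sites within 86 bp at 14.5% and 24.7%. Grb7, an adaptor protein of receptor tyrosine kinases, had 5 sites at 15.9% and 29.8%. The 2 remaining blocks of 5 sites had no gene symbol.

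**Figure D3:**
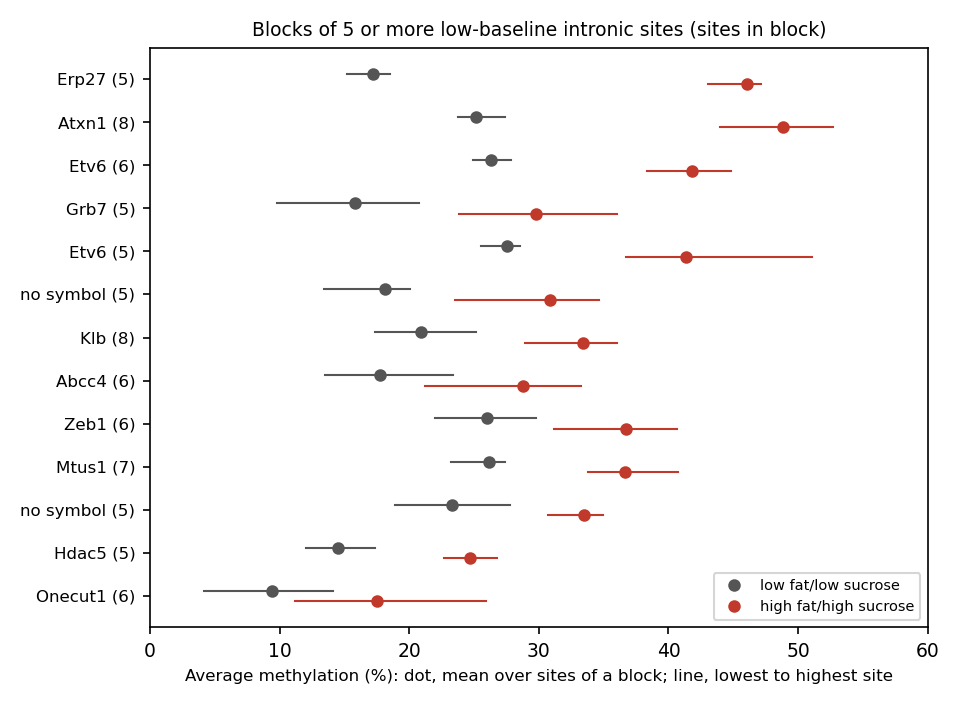
Mean of the site averages (dots, %) and the lowest to highest site (lines) in low-fat mice (grey) and high-fat (red) for the 13 blocks of at least 5 low-baseline intronic sites, named by the nearest gene with the number of sites in brackets and ordered by mean change. The mean change is largest in Erp27, from 17.2% to 46.0%, and smallest in Onecut1, from 9.40% to 17.5%, and the lines show the spread over sites, not over mice.

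Among blocks of 4 sites, Grhpr and Ctnnb1 changed most. Grhpr encodes glyoxylate and hydroxypyruvate reductase, which keeps glyoxylate from becoming oxalate in the liver. Its 4 sites within 72 bp, 2087 to 2158 bp into the gene, averaged 19.0% in low-fat mice and 40.3% in high-fat mice. Ctnnb1 is the start nearest to a block on chromosome 9 from 120903501 to 120903543 and encodes beta-catenin, the effector of Wnt signalling that sets metabolic zones in the liver lobule. That block averaged 13.9% and 34.1%. H6pd, which makes NADPH inside the endoplasmic reticulum, had 4 sites at 23.7% and 40.4%, and Prdx6, a peroxiredoxin with phospholipase activity, had 4 at 21.8% and 34.2%. Qdpr, which regenerates the cofactor of phenylalanine hydroxylase, had 4 at 14.2% and 26.5%. After the block of 1500017E21Rik (5.67% in low-fat and 16.4% in high-fat mice), the lowest block levels in low-fat mice were at Coro1c, an actin-binding coronin (7.09% against 18.3% in high-fat mice), and Kifc3, a kinesin motor (7.88% against 20.3%). Besides these, the 4-site blocks of Bcar3, Wwox, Rbms1, Inpp5b, Ppp1r15b, Mmd2, Pdzrn3, Sh3rf3, Rbfox3, Trpc7, Slc12a7, Ell2, Zfp395, Trio, Pqlc1 and 1 block without a symbol had all sites higher.

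The single sites with the largest rises were led by Erp27 at 136866020 on chromosome 6, where the authors' deposited table gives 15.2% and 46.6% and a listed difference of 32.3 points. Other Erp27 sites had listed differences of up to 31.8 points in the authors' deposited table. With 1 site taken per named gene, Dlg4 came next, at 5.65% and 34.7% in the authors' deposited table. Dlg4 encodes the scaffold PSD-95 of excitatory synapses. Nfatc2, a calcineurin-dependent transcription factor of T cells and other cells, went from 16.4% to 48.7% in the authors' deposited table. On that count, Fam196b (27.8 points), the angiotensin-(1-7) receptor gene Mas1 (27.5) and the cystine transporter subunit gene Slc3a1 (27.3) followed in the authors' deposited table. The rest of these 10 genes were Rin2 (26.9), Grhpr (26.6), Zfp809 (26.3) and Tfip11 (26.2) in the authors' deposited table. In all, 121 sites had a listed rise of at least 20 points. The Dlg4 and Tfip11 sites reached their level from under 7% in low-fat mice, while the Fam196b site started at 29.8% in the authors' deposited table, just under the limit.

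The 213 sites that were lower were mostly single, and their falls were bounded by the limit of 30%. The largest was at Syt7, a calcium sensor of vesicle and lysosome fusion, where the authors' deposited table gives 29.1% in low-fat mice and 7.00% in high-fat mice, a difference of -21.9 points. Por, which encodes the reductase that supplies electrons to all microsomal cytochrome P450 enzymes, fell from 24.9% to 9.31% at a site 19100 bp into the gene in the authors' deposited table. A second Por site, 6163 bp into the gene, went the other way, from 23.3% to 33.0% in the authors' deposited table. The fructose transporter gene Slc2a5 had a listed difference of -17.6 points (29.7% to 12.6%) and the orphan nuclear receptor gene Esrrg one of -17.1 points in the authors' deposited table. With 1 site taken per named gene, the remaining large falls in the authors' deposited table were at Sp2 (-19.4 points), Zfp69 (-19.3) and Cdc42bpb (-19.0). Smaller ones were at Gal3st2 (-17.2), B430212C06Rik (-17.0) and Tpst2 (-16.7) in the authors' deposited table. A site without a gene symbol, at 108612873 on chromosome 6, had a listed difference of -18.1 points. In all, 22 sites had a fall of at least 15 points.

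Of the 7 clusters in which all sites were lower, 6 were near named genes and each held 2 sites. Adipor2, which encodes a hepatic adiponectin receptor, had 2 sites upstream of its start that the authors' deposited table gives as 21.8% and 17.2% in low-fat mice against 13.1% and 6.53% in high-fat mice. Ptpro, a receptor-type tyrosine phosphatase, went from 20.4% to 6.48% and from 15.6% to 4.52% at 2 sites in the authors' deposited table. The others were at Gad2, Neto2, Rreb1 and Mcts2. No gene with at least 3 low-baseline intronic sites had all of them lower.

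Mixed clusters held neighbouring sites that moved in opposite directions. Near Gc, which encodes the vitamin D binding protein made by hepatocytes, the site 2105 bp into the gene went from 20.5% to 32.3% in the authors' deposited table. The 2 sites 1870 and 1861 bp into Gc went from 25.8% to 14.4% and from 22.6% to 11.8% in the authors' deposited table, so the direction turned within 245 bp. Near Rnf43, a ubiquitin ligase that removes Wnt receptors, 1 site went from 21.8% to 38.4% and another from 23.6% to 12.9% in the authors' deposited table. Arhgef3, Sim1, Angptl2, Unc5b, Foxb1, Sox1, Tbccd1, Dnmt3a and Mir101b each had 1 mixed cluster as well, and 2 more had no symbol.

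Of the 1347 genes named at low-baseline intronic sites, 439 had at least 2 such sites and 182 had at least 3. Among those 182 genes, 156 had all their low-baseline sites higher and 26 had sites in both directions. The same genes had 3158 other listed sites, of which 1679 (53.2%) were higher. In 415 genes with both low-baseline and high-baseline intronic sites, 696 of 756 low-baseline sites were higher (92.1%) and 580 of 740 high-baseline sites were lower (78.4%). In 242 of these genes (58.3%) every low-baseline intronic site was higher and every high-baseline one lower, so that the 2 kinds of site drew together in level. In 61 genes all sites of both kinds were higher, in 23 all were lower, and in 10 the low sites were lower and the high ones higher. Both classes were cut from the low-fat average, so this pattern is fixed in part by the rule.

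Foxp1 and Etv6 are given site by site, and Etv6 departs from the pattern at 1 low-baseline site. Foxp1, a forkhead transcription factor, had 6 low-baseline intronic sites, all higher, with listed differences of 6.41 to 17.1 points in the authors' deposited table. Its 15 other listed sites were all lower, by -16.7 to -6.18 points, from low-fat averages of 22.3% to 97.7% in the authors' deposited table. Of these 15 sites 12 were intronic, and not all 15 started at a high level. The Foxp1 site at 99324713 on chromosome 6, 10.6% in low-fat mice and 27.7% in high-fat mice, had the smallest q among the sites named here in the authors' deposited table, 4.68e-11. Etv6 had 12 low-baseline intronic sites, the most of any gene, with 11 higher and 1 lower, and its 5 other sites were all lower, from 43.5% to 80.8% in low-fat mice in the authors' deposited table. In Onecut1, by contrast, all 8 low-baseline sites were higher and the 13 others were split, 7 higher and 6 lower.

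Epas1, which encodes the hypoxia-inducible factor HIF-2 alpha, was the nearest start to 8 sites that were all higher. Their distances from it were -250579 to -137802 bp, which is upstream, so they lay in introns of other transcripts. The authors' deposited table gives these sites averages of 15.8% to 24.4% in low-fat mice and 22.8% to 33.0% in high-fat mice. Nav2, a neuron navigator protein, had 8 sites spread over 7 clusters, all higher, with listed differences of 6.96 to 25.4 points in the authors' deposited table. Bcar3 had 8 sites, and Wwox, a large gene for an oxidoreductase with WW domains, had 7, in both cases all higher. Wwox and Abcc4 were tied at 7 sites with Sgms1, a sphingomyelin synthase, whose sites were also all higher but which falls outside the 10 genes because ties went to the smaller p. A count of sites per gene thus came either from 1 compact block, as in Klb, or from separate places, as in Nav2.

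**Figure D4:**
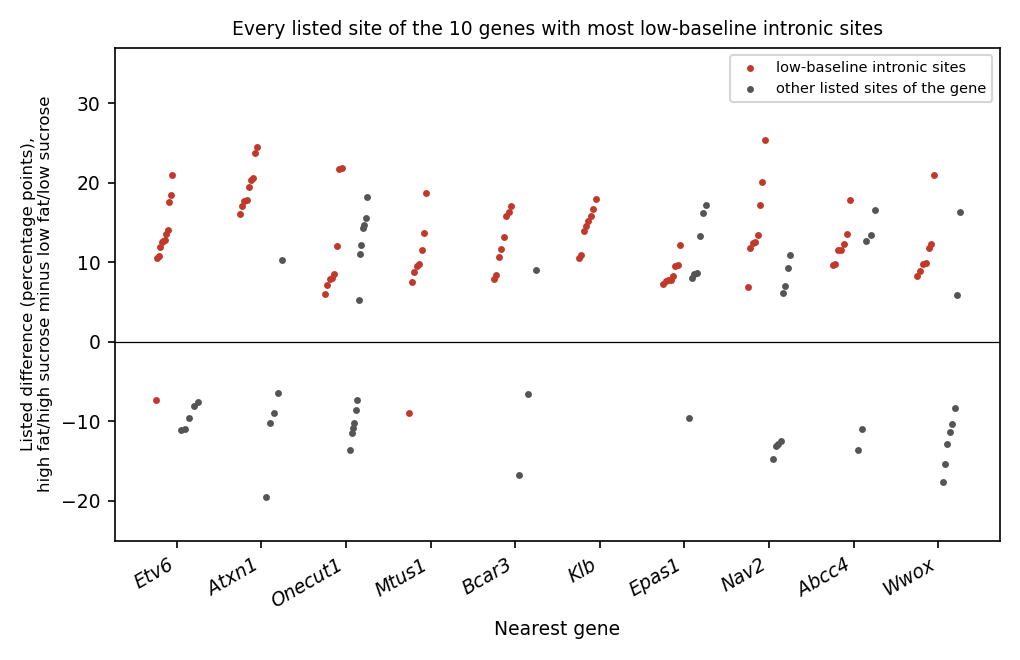
Listed difference in percentage points, high-fat mice minus low-fat mice (vertical axis), of every listed site of the 10 genes with the most low-baseline intronic sites, ties going to the smaller p (horizontal axis), with low-baseline intronic sites in red, other sites in grey, and points spread sideways within a gene. Of the red points only 1 in Etv6 and 1 in Mtus1 lie below 0, while the grey points of Etv6 all do.

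Genes of liver metabolism were described by 15 pathway lists, which were chosen with earlier results of these data known. A further 7 lists held cell type markers. Over all 22 lists, 240 low-baseline intronic sites lay nearest to 127 genes, and 223 of the sites (92.9%) were higher, close to the 91.0% over all low-baseline intronic sites. The counts below describe where listed genes lie and set no list apart.

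Genes that build fatty acids and triglycerides had 18 low-baseline intronic sites near 10 genes, and all 18 were higher, with a median listed difference of 12.6 points. Fasn, the fatty acid synthase, had 1 site, 6839 bp into the gene, at 18.8% in low-fat mice and 38.1% in high-fat mice in the authors' deposited table. Acly, which supplies cytosolic acetyl-CoA, had 2 sites that the authors' deposited table gives as 25.2% and 29.7% in low-fat mice and 40.1% and 46.8% in high-fat mice. Scd2, a fatty acid desaturase, went from 21.6% to 39.9% in the authors' deposited table. Gpam, the mitochondrial acyltransferase that starts triglyceride synthesis, had 3 sites with listed differences of 11.4 to 18.4 points, and the elongase gene Elovl2 had 4 of 9.36 to 14.6 points in the authors' deposited table. At the Elovl2 site of smallest p, 24066 bp into the gene, the authors' deposited table gives 21.8% and 32.8%, and for Lpin2, a phosphatidate phosphatase, it gives 26.3% and 38.0%. Acaca, Agpat2, Elovl5 and Elovl6 made up the rest, with no site lower.

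Genes of fatty acid uptake, droplets and lipases had 7 sites near 5 genes, all higher. Acsl1, the main hepatic long-chain acyl-CoA synthetase, went from 28.0% to 42.8% in the authors' deposited table. Lipc, the hepatic lipase, had 2 sites at very low levels, 3.22% and 2.47% in low-fat mice and 12.2% and 10.9% in high-fat mice in the authors' deposited table. Fabp1, the liver fatty acid binding protein, had 2 sites with listed differences of 14.1 and 14.2 points in the authors' deposited table. Fatty acid oxidation had 6 sites, all higher, 3 near Ppara and 3 near Ppargc1b. Ppara encodes the fatty acid receptor that drives oxidation during fasting, and its sites ran from 22.8% to 28.7% in low-fat mice and from 36.0% to 38.3% in high-fat mice in the authors' deposited table. Ppargc1b, a transcriptional co-activator, ran from 24.5% to 25.1% and from 33.5% to 34.7% in the authors' deposited table.

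Cholesterol, bile acid and lipoprotein genes had the most sites of any list, 30 near 12 genes, of which 29 were higher. Besides the 8 Klb sites, Fdft1, the squalene synthase, had 6 sites in 2 clusters. The authors' deposited table gives the Fdft1 sites averages of 15% to 25.2% in low-fat mice and 31.4% to 37.2% in high-fat mice. Scarb1, the HDL receptor, had 3 sites with listed differences of 13.0 to 20.4 points, and Apoa1, the main HDL protein, was the nearest start to 3 of 11.1 to 14.0 points in the authors' deposited table. Apob, the structural protein of VLDL, had 2 sites of low level, 7.29% and 7.69% in low-fat mice and 13.5% to 13.7% in high-fat mice in the authors' deposited table. The only lower site was at Abcb4, the phospholipid flippase of the bile canaliculus, at 28.7% and 18.1% in the authors' deposited table.

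Glucose metabolism had 9 sites near 5 genes, all higher, and 4 of them were near Pygl, the liver glycogen phosphorylase. The authors' deposited table gives the Pygl sites averages of 24.9%, 24.7%, 17.2% and 24.8% in low-fat mice and 33.8%, 33.6%, 26.1% and 31.6% in high-fat mice. Fbp1, the fructose bisphosphatase of gluconeogenesis, went from 14.9% to 29.4%, and Slc2a2, the hepatocyte glucose transporter, had 2 sites with listed differences of 12.3 and 18.3 points in the authors' deposited table. Insulin and nutrient signalling had 16 sites near 12 genes, of which 14 were higher. Irs2, an insulin receptor substrate, was the nearest start to 2 sites with listed differences of 10.5 and 12.2 points, and Igf1 had 1 of 17.3 points in the authors' deposited table. Grb10, an adaptor that damps insulin receptor signalling, went from 17.4% to 26.2% in the authors' deposited table. Igf1r was lower, at 22.3% and 12.8% in the authors' deposited table, and Pik3r1 had 1 site in each direction.

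Transcription factor genes of the hepatocyte had 18 sites near 7 genes, all higher. Onecut1 had 8 of them, and Tcf7l2, a DNA-binding partner of beta-catenin, had 4 with listed differences of 10.2 to 11.4 points in the authors' deposited table. The Tcf7l2 sites had distances of -196278 to 3519 bp, so at least 1 lay far upstream of the nearest listed start. Hhex, a homeobox gene of early liver development, went from 19.1% to 38.9% at 1 site in the authors' deposited table, and Foxa3, Gata4, Onecut2 and Tbx3 were also higher. Nuclear receptors and their co-regulators had 21 sites, 19 of them higher. Rora, a receptor that shapes clock and lipid genes, had 4 sites, all higher, with differences of 6.62 to 11.7 points in the authors' deposited table. Ncoa3, a receptor co-activator, went from 13.0% to 23.5% in the authors' deposited table. Of the 3 Esrrg sites, 1 was lower.

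The list of AP-1, ETS, Runx and related factors had 28 sites, 27 of them higher, and 18 of the 28 were near Etv6 (12) and Foxp1 (6). Runx3 had 3 with listed differences of 6.33 to 21.6 points in the authors' deposited table. Inflammation and cytokine signalling had 7 sites near 5 genes, all higher. Il6ra, which encodes the interleukin-6 receptor of hepatocytes, had 2 adjacent sites that the authors' deposited table gives as 19.7% and 19.1% in low-fat mice and 41.5% and 43.2% in high-fat mice. Jak1, the kinase that receptors of this family signal through, had 2 sites, the stronger going from 26.0% to 41.2% in the authors' deposited table. Circadian clock genes had 8 sites near 4 genes, all higher. Among them Per2 had 4, with listed differences of 9.37 to 14.3 points in the authors' deposited table, and Nfil3, a repressor of clock output genes, went from 22.2% to 32.9% in the authors' deposited table.

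The TGF-beta, matrix and fibrosis list had 13 sites, 11 of them higher, with Smad1, a carrier of BMP signals, going from 27.9% to 45.0% at its site of smallest p and the integrin gene Itgb1 going from 11.8% to 28.1% in the authors' deposited table. Col4a1, a basement membrane collagen, and Smad4 each had 1 site that was lower, at 24.4% and 13.0% for Col4a1 and at 17.7% and 7.87% for Smad4 in the authors' deposited table.

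One-carbon metabolism and methylation enzymes had 10 sites near 7 genes, of which 8 were higher. Mthfd1l, a mitochondrial folate enzyme, had a site going from 18.8% to 32.8%, and Pemt, which makes phosphatidylcholine from methyl groups in the liver, went from 21.6% to 37.3% in the authors' deposited table. Tet2, which oxidises methylcytosine, went from 17.5% to 25.7% in the authors' deposited table. Dnmt3a, a methyltransferase that sets new methylation, was the nearest start to 3 sites upstream of it, of which 2 were lower. The Dnmt3a sites averaged 27.7%, 11.3% and 0.433% in low-fat mice and 15.5%, 4.60% and 5.34% in high-fat mice in the authors' deposited table. Xenobiotic enzymes had 6 sites near 3 genes, 4 higher and 2 lower: Gsta3 was higher, and Por and the exporter gene Abcc3 each had sites in both directions. The Abcc3 site 21988 bp into the gene went from 25.8% to 12.1% in the authors' deposited table, and the 2 others were higher.

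**Figure D5:**
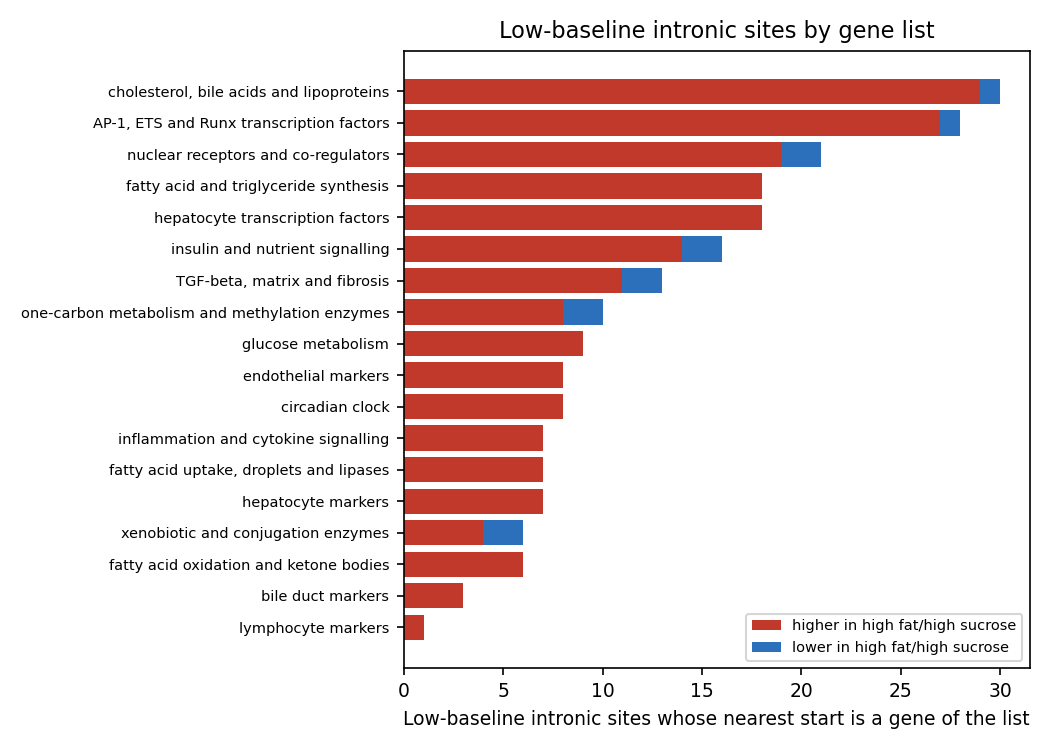
Number of low-baseline intronic sites (horizontal axis) whose nearest start is a gene of each list (vertical axis), split into sites higher (red) and lower (blue) in high-fat mice, for 18 lists with at least 1 site. Cholesterol, bile acid and lipoprotein genes have the most, 30 sites with 1 lower, and in no list shown are more than 2 sites lower.

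Markers of cell types were looked up the same way, since the mix of cells in the liver may differ between diets. Hepatocyte markers had 7 sites near 5 of 23 genes, all higher, among them Alb, the serum albumin gene, at 19.8% and 32.3%, and Serpinc1, the antithrombin gene, at 24.4% and 35.7% in the authors' deposited table. Endothelial markers had 8 sites near 5 of 20 genes, all higher, 4 of them near Vwf, the von Willebrand factor gene. The largest Vwf difference was at 125488580 on chromosome 6, from 28.2% to 52.2% in the authors' deposited table. At the endothelial receptor gene Robo4 the authors' deposited table gives 24.3% and 38.2%. Bile duct markers had 3 sites, all higher, near Prom1 and Cftr, at 10.2% and 19.4% for the Prom1 site of smallest p and at 12.2% and 25% for Cftr in the authors' deposited table. Lymphocyte markers had 1 site, near Zap70, at 17.5% and 31.9% in the authors' deposited table. These counts stand beside a share of 91.0% higher over all low-baseline intronic sites. Over listed sites of every class, 28 of 31 were higher for hepatocyte markers and 27 of 52 for endothelial markers. For bile duct markers 9 of 21 were higher and for lymphocyte markers 6 of 15, against 57.6% over the deposited sites as a whole. Markers of stellate cells and fibroblasts, of macrophages and neutrophils, and of adipocytes had no low-baseline intronic site. The macrophage and neutrophil markers and the adipocyte markers had 0 listed intronic sites of any baseline, so none could be counted. The stellate cell and fibroblast markers had only 4. No expression was measured, so the tissue label could not be checked, and the part of cell mix in these differences was not tested.

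MicroRNA genes were the nearest start to 26 low-baseline intronic sites, 22 of them higher and 4 lower, at 16 microRNA genes, of which 13 were matched in RefSeq. Only Mir26b, Mir1981 and Mir101b had at least 3 sites. Their mature sequences from RefSeq are shown 5′ to 3′ with the seed, bases 2 to 8, in capitals, to identify the products of the loci, and no 2 of them share a seed.
Mir26b, miR-26b-5p: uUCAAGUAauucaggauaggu
Mir26b, miR-26b-3p: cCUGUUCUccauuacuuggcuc
Mir1981, miR-1981-5p: gUAAAGGCugggcuuagacguggc
Mir1981, miR-1981-3p: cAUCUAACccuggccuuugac
Mir101b, miR-101b-5p: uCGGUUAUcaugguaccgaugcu
Mir101b, miR-101b-3p: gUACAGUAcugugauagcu
The 3 Mir26b sites, within 1114 to 1137 bp downstream of the listed start on chromosome 1, read 28.8%, 29.3% and 22.9% in low-fat mice and 39.4%, 40% and 32.4% in high-fat mice in the authors' deposited table. The 4 Mir101b sites form the only mixed block of 4: 3 were higher, with listed differences of 11.2 to 13.8 points, and the one nearest to the start fell from 22.6% to 10.7% in the authors' deposited table. The 3 Mir1981 sites were all higher and ran from 0.529% to 29.7% in low-fat mice in the authors' deposited table. The microRNAs themselves were not measured.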

How the data were processed

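Liver genomic DNA of 13 mice (7 low fat/low sucrose, 6 high fat/high sucrose) was captured and bisulfite sequenced, with 9 cycles of amplification after conversion and 6 of indexing, per the labels' protocols. Tools named in the submitters' processing notes, without settings, are CASAVA 1.8, Trim Galore, Bismark and methylKit, with build mm9. Per the file headers, the authors' deposited table holds for each site a p-value, a q-value, a signed difference and 2 averages in percent methylation, beside a distance, feature flags and a gene symbol. The difference is signed as the high-fat less the low-fat average at all 23904 sites. It is not their plain difference (median gap 0.920 points among low-baseline intronic sites, largest 8.68). The authors' test, weighting and filters were not stated in the sources used here. Low-baseline intronic sites had q up to 0.0100 and absolute differences from 5.04 points.

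Here, sites were counted, joined to clusters within 1000 bp and set beside the other intronic sites with Python 3.11.15, pandas 2.3.3 and numpy 2.4.6. Joining was tested on simulated data. No test across mice was run, since values per mouse were not analysed here. Positive distances were read as downstream, since they grow with position on all 2678 plus-strand features with at least 2 sites. Symbols were matched to RefSeq (2040 current, 89 synonyms, 3 by transcript, 1 unmatched), and 235 sites had none. Sites on chromosomes X, Y and M were left out, 22 of which otherwise met the rule. The limit and the gene lists were chosen with earlier results of these data known. Genes are named by this rule: the 10 of largest rise, the 10 of largest fall, the 10 holding most sites (ties by smallest p), up to 2 per list with the smallest p, and every block of at least 4 sites. Others are named within counts of their list or cluster, or were picked after their values were seen. Other limits, joining distances and filters were tried. Some genes that the rule takes, and 1 list, are not reported here.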

Additional observations from a re-analysis of the deposited data

How the results depend on the processing

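The number of low-baseline intronic sites depends on the limits: 1305 sites with a limit of 20%, 1536 with a listed difference of at least 10 points and 640 with q under 0.001, against 2368, while limits of 25% and 35% gave 1901 and 2600. The share higher was 91.0% and moved most with the diet that carries the limit, to 73.4% with 30% on the high-fat average and 85.1% with 30% on the mean of both. It was 93.0% with differences of at least 10 points, 93.6% with q under 0.001, and 89.1%, 89.3% and 88.9% of clusters joined within 1000, 100 and 5000 bp. Near genes of the lists it was 92.9%, and 97.1% of 104 sites within 10000 bp of the start. Over all low-baseline intronic sites it was 82.9% within 2000 bp, 92.1% from 2000 to 5000 bp and 89.3% from 5000 to 10000 bp. This difference was not tested, and the lists were chosen with earlier results known. The median distance was 13497 bp with 1 site per cluster and 13183 bp with a limit of 20%. The sign of the listed difference is that of the averages at all 23904 sites, so subtracting the averages could change no direction. Of 65 named sites, 64 then differed by at most 1.5 times from the listed difference, with 1 rise going from 19.7 to 12.7 points. No paired analysis was possible because the table holds no values per mouse, and leaving out each mouse in turn could not be run for the same reason. Depth per site is unknown, so which low levels are well measured cannot be said.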
